A study of Mus musculus with 6 samples.

Results

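Sphingosine-1-phosphate (S1P) genes were examined in naive follicular B cells that lacked the heavy chain of nonmuscle myosin IIa, encoded by Myh9. The set held 9 genes of 20458 in the deposited table: the transporter Spns2, the receptors S1pr1, S1pr2, S1pr3 and S1pr4, the sphingosine kinases Sphk1 and Sphk2, the lyase Sgpl1 and the phosphatase Sgpp1. They were chosen by name, with the expression of both genotypes in these same cells already known, so every value below is a description and carries no test. Together they had 12 of the 25017 entries of the table, in which an entry gathers the transcripts with the same coding sequence.

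RNA sequencing compared sorted B220+AA4.1-CD23+CD21lo cells from mice of the genotypes CD23Cre+Myh9wt/fl (wt/fl) and CD23Cre+Myh9fl/fl (fl/fl) on the C57BL/6 strain, with samples from 3 mice of each genotype and 6 in all. Both groups carried the CD23Cre transgene, in which the Fcer2a promoter drives Cre in mature and transitional B cells, and at least 1 floxed Myh9 allele. The wt/fl group therefore served as the control while having 1 allele open to deletion, and no mice with both alleles intact were in the comparison. The labels name no treatment, age or organ of origin for these samples. The deposited values were the authors' pooled FPKM, fragment counts divided by transcript length and by library size, with 1 value for each genotype. The spread between samples and the depth of each library are thus unknown, and no difference below has a replicate check.

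S1P is a lipid signal that is abundant in blood and lymph and kept scarce within tissues. Sphingosine kinases make it, Spns2 and Mfsd2b carry it out of cells, and the lyase and phosphatases remove it. Lymphocytes read the resulting gradient through G protein-coupled S1P receptors, of which S1pr1 is known for drawing them out of lymphoid organs and S1pr2 for holding germinal center B cells in place.

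The 9 genes were compared on FPKM summed over the entries of each gene, as the log2 ratio of fl/fl to wt/fl after 1 FPKM was added to each value, which understates the change of low genes. A gene was compared where the mean of both genotypes was at least 1 FPKM, and 7 of the 9 were. A ratio of at least 1.5-fold in either direction is called past the fold below. Spns2 was the single S1P gene past it, with less RNA in fl/fl. No S1P gene was past it in the other direction. Over all 9879 genes compared, 1.53% were lower in fl/fl past the fold and 0.79% were higher. The median log2 ratio was -0.040 over the 7 S1P genes, with 4 of them below 0 and 3 above, and 0.0026 over all genes compared.

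Myh9 itself, the targeted gene, was at 50.6 FPKM in wt/fl against 21.1 in fl/fl. It kept 41.7% of its wt/fl level, a log2 ratio of -1.22, so the columns followed their labels, although FPKM covers the whole transcript and not the floxed exon alone. The cells also carried the RNA of the sorted population. Fcer2a (CD23) was at 439 FPKM in wt/fl against 588 in fl/fl and Cr2 (CD21) at 177 and 198, while Cd93, which carries the AA4.1 epitope, was at 3.28 and 4.23. None of the 10 mature B cell markers was past the fold, beside 1.53% lower and 0.79% higher over all genes compared.

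**Figure D1:**
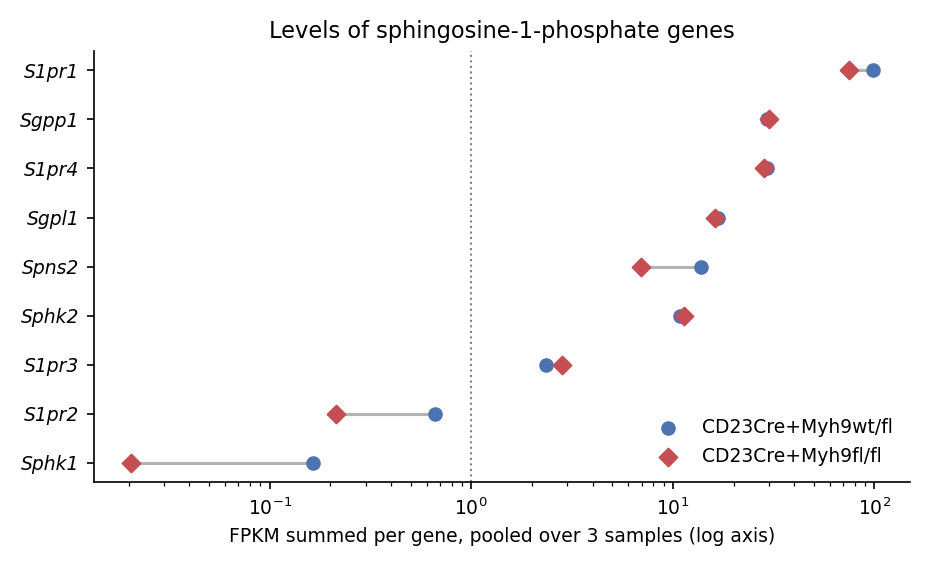
Pooled FPKM of the 9 S1P genes on a log axis, summed over the entries of each gene, with 1 point for wt/fl and 1 for fl/fl and no error bars because each genotype has a single value. S1pr1 was the highest in both genotypes, the points of Spns2 were 13.8 in wt/fl against 6.95 in fl/fl, and Sphk1 and S1pr2 were below 1 FPKM in both.

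Spns2, the exporter that releases S1P from cells, was at 13.8 FPKM in wt/fl against 6.95 FPKM in fl/fl. The fl/fl level was 50.2% of the wt/fl level, with a log2 ratio of -0.90. That ratio was the 52nd lowest among the 9879 genes compared. Of the 3968 genes with a mean of 5 to 20 FPKM, the range that holds Spns2, 0.932% were lower in fl/fl past the fold and the 5th and 95th percentiles of the log2 ratio were -0.32 and 0.31. In wt/fl cells Spns2 stood above 49.8% of the genes compared.

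The 2 entries of Spns2 moved apart. Entry P13736 held most of the RNA, with 12.8 FPKM in wt/fl against 4.99 FPKM in fl/fl, a wt/fl level 2.56 times that of fl/fl and a log2 ratio of -1.20. Entry P15559 was low in both, with 1.06 FPKM in wt/fl against 1.95 FPKM in fl/fl, a log2 ratio of 0.52 that did not reach the fold. The share of the gene's FPKM given by P15559 was 7.64% in wt/fl against 28.1% in fl/fl. Counted by entry, 3.37% of the 11434 entries compared were lower in fl/fl past the fold and 2.86% were higher. Of the 1232 genes with at least 2 entries of a mean of 1 FPKM or more, 206 genes (16.7%) also had an entry lower past the fold beside another above 0. Which annotated coding sequence each Spns2 entry stands for was not determined here.

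Spns2 lies on chromosome 11, chr11:72265139-72303422 in mm9, the build of the table. In GENCODE M21, on GRCm38, it has 6 transcripts on the minus strand, and Spns2-201 has 13 exons with 1647 coding bases. Of the 5 other genes within 100 kb, 3 were compared and none was past the fold, with log2 ratios of 0.037 to 0.16. Over all genes compared, 1.53% were lower past it and 0.79% were higher. Mybbp1a, whose locus ends 87 bases from Spns2, was at 29.3 FPKM in wt/fl against 33.0 in fl/fl, and Spns3, 8235 bases away on the other side, was at 6.45 and 7.03. Spns2 overlapped no other gene of the table.

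Spns1, which transports lysophospholipids out of lysosomes, was outside the 9 genes but is the relative of Spns2 in the same family. It was at 9.18 FPKM in wt/fl against 2.77 FPKM in fl/fl, a log2 ratio of -1.43 past the fold. Spns3, with a log2 ratio of 0.11, was not. The 3 Spns genes summed to 29.5 FPKM in wt/fl against 16.7 FPKM in fl/fl, and the share of Spns3 in that sum was 21.9% in wt/fl against 42.0% in fl/fl.

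The starts of Spns2 and Spns1, the Spns genes past the fold, are shown here as RefSeq promoter sequence on GRCm38.p6, from 250 bases before to 50 bases after the start, with CCAAT or its reverse complement ATTGG in capitals. For Spns2 this is an internal start, on the minus strand at chr11:72474978-72475277, within the first intron of Spns2-201. The start of Spns2-201 itself lies outside this window and was not examined. Which start gave the measured Spns2 RNA was not determined. For Spns1 it is on the minus strand at chr7:126377885-126378184.
Spns2: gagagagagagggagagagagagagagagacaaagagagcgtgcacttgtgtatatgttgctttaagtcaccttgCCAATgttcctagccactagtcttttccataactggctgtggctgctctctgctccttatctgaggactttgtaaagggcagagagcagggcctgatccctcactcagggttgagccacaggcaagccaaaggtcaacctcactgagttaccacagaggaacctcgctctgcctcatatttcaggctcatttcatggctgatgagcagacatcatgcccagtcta
Spns1: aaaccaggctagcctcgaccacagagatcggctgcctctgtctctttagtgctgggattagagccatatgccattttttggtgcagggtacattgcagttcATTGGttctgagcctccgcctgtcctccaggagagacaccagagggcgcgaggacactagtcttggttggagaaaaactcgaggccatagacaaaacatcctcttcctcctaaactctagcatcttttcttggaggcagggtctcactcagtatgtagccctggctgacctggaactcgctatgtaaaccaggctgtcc
Each window held CCAAT once, a motif found in 37.4% of the 32851 RefSeq promoters of this length on either strand. Neither held CACCC, the core of sites bound by Klf factors, which 57.5% of promoters held, nor GGGCGG (35.7%), TATAA (24.9%) or CACGTG (7.15%). The GC content was 50.3% for Spns2 and 52% for Spns1, beside a median of 52.7% over all promoters. Of the 9 S1P genes, 8 had a promoter in that table.

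**Figure D2:**
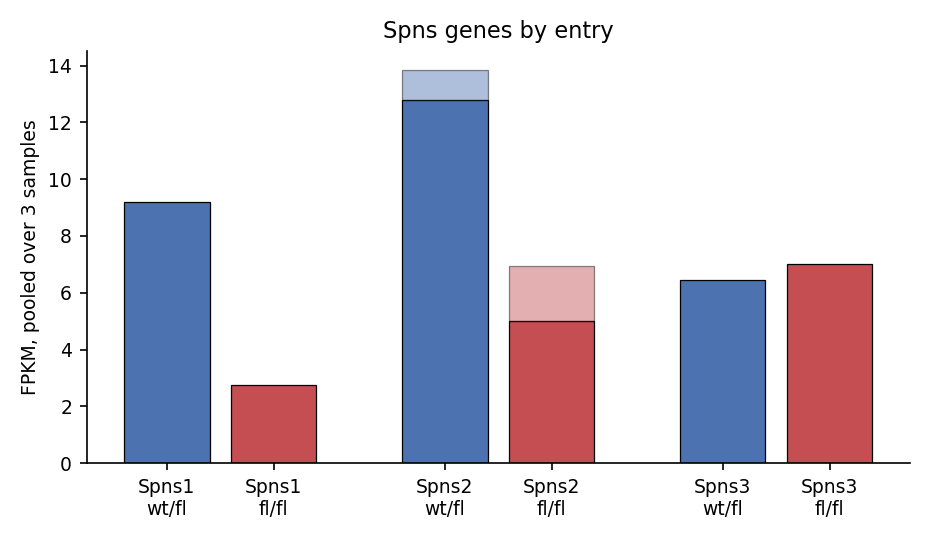
Pooled FPKM of the Spns2 entries and of Spns1 and Spns3 in wt/fl and fl/fl, 1 value per genotype without error bars. The larger Spns2 entry was 12.8 in wt/fl against 4.99 in fl/fl, the smaller was 1.06 and 1.95, and Spns1 was 9.18 and 2.77.

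Among the receptors, S1pr1 carried most of the RNA. S1pr1, which couples to Gi, was at 98.0 FPKM in wt/fl, above 93.6% of the genes compared, and at 75.2 FPKM in fl/fl. The fl/fl level was 76.7% of wt/fl with a log2 ratio of -0.38, which was not past the fold and was the 395th lowest of the 9879. Its locus is chr3:115413350-115417973 in mm9. In bulk RNA, fewer cells of a type and less RNA per cell cannot be told apart, for S1pr1 as for Spns2.

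S1pr4, a receptor found mainly on blood cells, was at 29.3 FPKM in wt/fl against 28.4 FPKM in fl/fl, a log2 ratio of -0.040. S1pr3, which couples to Gi, Gq and G12/13, was at 2.35 and 2.83, a log2 ratio of 0.19. S1pr2, the receptor that couples strongly to G12/13, was at 0.662 and 0.214, below the level set for comparison. S1pr5, outside the 9 genes and known from natural killer cells, was also low, at 0.497 and 0.436 FPKM. The receptor RNA was thus almost all S1pr1 and S1pr4 in both genotypes.

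The 5 receptors summed to 130.8 FPKM in wt/fl against 107.1 FPKM in fl/fl. S1pr1 made up 74.9% of that sum in wt/fl against 70.2% in fl/fl, and S1pr4 made up 22.4% and 26.6%. S1pr1 was 3.35 times the level of S1pr4 in wt/fl and 2.64 times in fl/fl. The other 3 receptors stayed within 0.200% to 2.64% of the sum in either genotype.

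Of the sphingosine kinases, which phosphorylate sphingosine to S1P, Sphk2 supplied nearly all of the RNA. Sphk2 was at 10.9 FPKM in wt/fl against 11.3 FPKM in fl/fl, a log2 ratio of 0.053. Its table locus, chr7:52960616-52973372 in mm9, was shared with Dbp, a circadian transcription factor at 0.642 and 1.12 FPKM. Reads in any stretch common to both transcripts could be assigned to either gene, and how far the transcripts overlap was not determined. Sphk1 was at 0.163 FPKM in wt/fl against 0.0206 in fl/fl over its 3 entries and was not compared. Sphk2 made up 98.5% of the kinase FPKM in wt/fl against 99.8% in fl/fl, and the kinase sum was 11.1 and 11.4.

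Of the enzymes that remove S1P, none was past the fold, beside 1.53% lower and 0.79% higher over all genes compared. Sgpl1, the lyase that cleaves S1P irreversibly, was at 16.7 FPKM in wt/fl against 16.1 FPKM in fl/fl, a log2 ratio of -0.047. Sgpp1, the phosphatase that returns S1P to sphingosine, was at 29.4 and 29.9, a log2 ratio of 0.023. Sgpp2, the related phosphatase outside the 9 genes, was at 9.18 and 7.78, a log2 ratio of -0.21. Sgpl1, Sgpp1 and Sgpp2 together were 5.0 times the kinase sum in wt/fl and 4.74 times in fl/fl.

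By FPKM, which is scaled to length, the wt/fl order from the top was S1pr1, Sgpp1, S1pr4, Sgpl1, Spns2, Sphk2, S1pr3, S1pr2 and Sphk1. In fl/fl the order differed in a single place, where Sphk2 at 11.3 FPKM stood above Spns2 at 6.95. Without a spread between samples, neighbours such as Sgpp1 at 29.4 and S1pr4 at 29.3 in wt/fl cannot be placed apart.

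**Figure D3:**
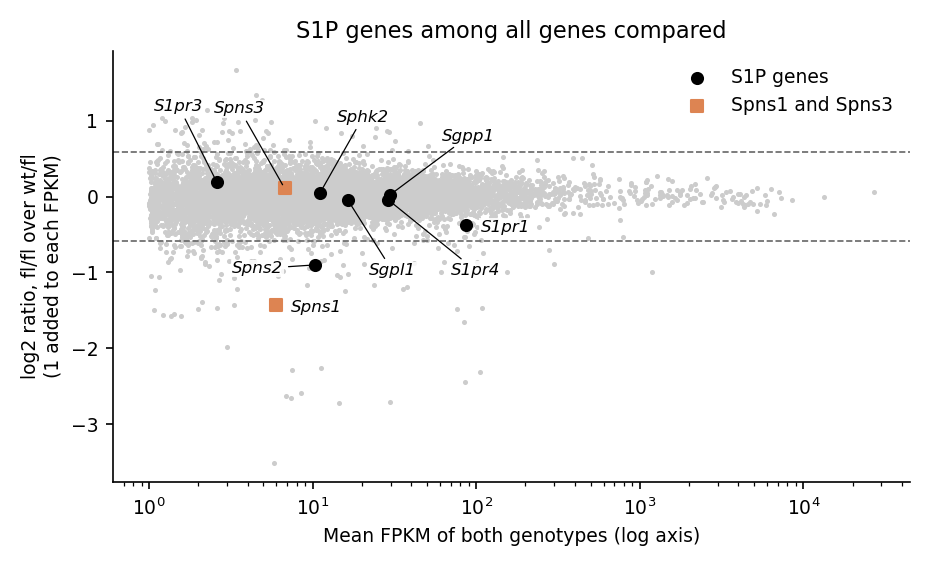
Log2 ratio of fl/fl to wt/fl, after 1 FPKM was added to each, against the mean FPKM of both genotypes on a log axis for the 9879 genes compared, in grey, with the 7 S1P genes compared as black circles and Spns1 and Spns3 as orange squares. Dashed lines mark 1.5-fold, and Spns2 (-0.90) and Spns1 (-1.43) lie below the lower line while S1pr1 (-0.38) lies above it.

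Other genes of the pathway were taken from 6 lists of which 116 genes were in the table and 93 were compared, with P2ry10 on 2 lists and counted once. Of these, 3 were lower in fl/fl past the fold (Cxcr4, Rgs10 and Spns1) and 0 were higher, beside 1.53% and 0.79% of all genes compared. The median log2 ratio over the 93 was -0.015, with 51 below 0 and 42 above.

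Of the other genes that handle S1P directly, 12 were in the table and 8 were compared, with a median log2 ratio of -0.16. Abca1, a lipid exporter, was at 32.4 FPKM in wt/fl against 23.5 in fl/fl, and Abcc1, another ABC transporter, was at 10.1 and 11.9. Mfsd2b, the S1P exporter of red cells and platelets, was at 0.591 and 0.377 and was not compared. Apom, which carries S1P in plasma, was at 1.21 and 1.04. The lipid phosphate phosphatases Ppap2b and Ppap2c were at 2.69 and 2.39 FPKM in wt/fl and at 3.92 and 1.91 in fl/fl. Their relative Ppap2a, at 0.784 and 0.206, and the ABC transporter Abcg2, at 0.399 and 0.442, were too low to be compared. Spns1 was the single gene of this list past the fold, beside 1.53% of all genes compared that were lower past it.

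Enzymes of ceramide and sphingolipid metabolism, which supply sphingosine, showed no gene past the fold among 29 compared of 38 in the table. Over all genes compared, 1.53% were lower in fl/fl past the fold and 0.79% were higher. The log2 ratios of the 29 enzymes ran from -0.27 to 0.37, with 13 below 0, 16 above and a median of 0.0032. The highest were Ugcg, the glucosylceramide synthase, at 96.4 FPKM in wt/fl against 114.6 in fl/fl, the saposin precursor Psap at 93.2 and 85.9, and the ceramide synthase Cers2 at 72.2 and 69.9.

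Downstream of the receptors, 30 of 34 signalling genes were compared and 1 was lower past the fold, beside 1.53% of all genes compared. Rgs10, a GTPase activating protein for Gi subunits, was at 8.15 FPKM in wt/fl against 3.85 in fl/fl, a log2 ratio of -0.92. The median of the list was -0.031. Its most abundant genes were the GTPases Rac2 (250 and 280 FPKM) and Rhoa (227 and 235), and Arhgef1, a guanine nucleotide exchange factor activated by G12/13, which was at 209 FPKM in both genotypes. The Gi subunit Gnai2 was at 125 and 142, and Gna13 was at 55.5 and 50.2.

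Genes known to set the level of S1pr1 were compared in 7 of 7 cases, with 6 below 0 and a median log2 ratio of -0.15. Of the 7, 0 were past the fold, beside 1.53% lower and 0.79% higher over all genes compared. Nedd4l, at 5.24 and 6.21 FPKM, was the 1 above 0. The list mixes genes that raise S1pr1 with genes that remove it, so its count and median have no single meaning for S1pr1. Klf2, the transcription factor that drives S1pr1, was at 140 FPKM in wt/fl against 126 in fl/fl, and Foxo1, which acts upstream of Klf2, was at 102 and 88.5. Stat3 was at 43.8 and 36.3. Cd69, which binds S1pr1 and removes it from the cell surface, was at 35.4 and 28.3, a log2 ratio of -0.31. The levels of these transcripts say nothing of S1pr1 protein at the surface, which was not measured by this assay.

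The receptors and integrins that guide B cells alongside S1P were compared in 13 of 13 cases, with a median log2 ratio of -0.073. Of the 13, 1 was lower in fl/fl past the fold, beside 1.53% of all genes compared. Cxcr4, the receptor for Cxcl12, was at 113 FPKM in wt/fl against 39.7 in fl/fl, a log2 ratio of -1.49. Among the most abundant were Cxcr5 (180 and 178 FPKM), which guides B cells into follicles, and Ccr7 (146 and 118), which draws them to the T cell zone. P2ry10, a lysophospholipid receptor, was at 69.6 and 49.3, a log2 ratio of -0.49.

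**Figure D4:**
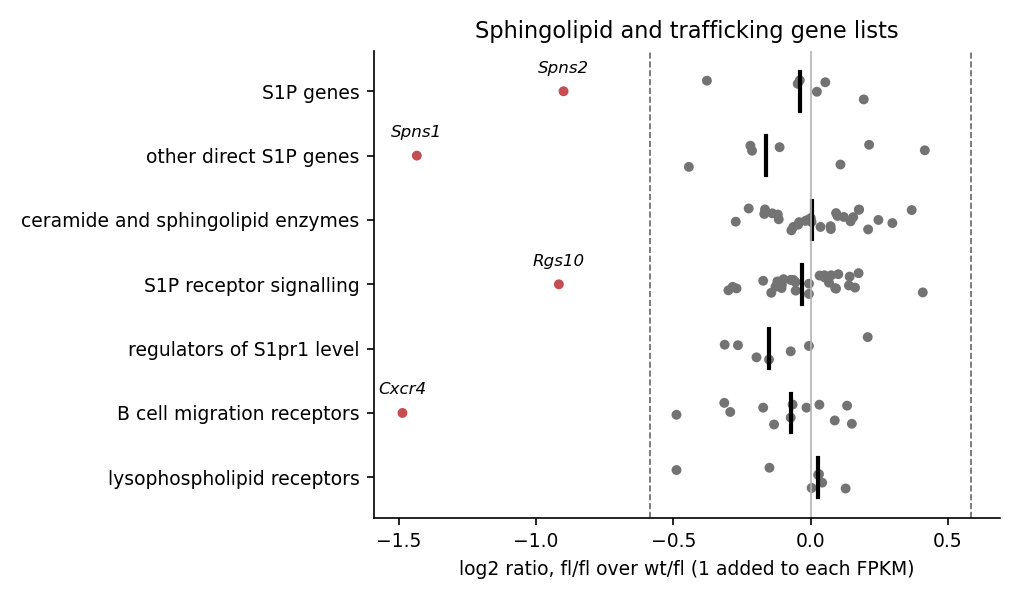
Log2 ratio of fl/fl to wt/fl, after 1 FPKM was added to each, for the S1P genes and the genes compared in each pathway list, with 1 point per gene. The genes past 1.5-fold were Spns2 among the S1P genes and Spns1, Rgs10 and Cxcr4 among the lists, all lower in fl/fl.

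RNA of genes listed as markers of other cell types also differed between the genotypes, and which cells it came from was not tested. Over all genes compared, 1.53% were lower in fl/fl past the fold and 0.79% were higher. The 8 neutrophil markers summed to 364 FPKM in wt/fl against 64.6 in fl/fl. Of these, 8 of 8 were lower in fl/fl and all 6 that were compared were past the fold. The erythroid sum was 55.5 and 7.65, most of it the globin gene Beta-s (52.0 and 7.08). The macrophage and monocyte sum was 85.2 and 56.3, most of it Lyz2 (72.6 and 44.9), the single 1 of 4 compared past the fold. Of the other macrophage and monocyte markers, Csf1r was at 1.42 and 1.39, and C1qb (1.61 and 2.39) was higher in fl/fl. The 6 marginal zone B cell markers summed to 378 and 265, with 5 of 6 lower and Cd9 (4.61 and 2.52) and Plac8 (138 and 82.1) past the fold. Mzb1 (189 and 140) was the highest of the 6, and Cd1d1 (15.1 and 15.7) was the 1 that was higher in fl/fl. The part of other cell types in the differences of Spns2, Spns1, S1pr1, Rgs10 and Cxcr4 was not tested.

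Endothelial cells are a main source of S1P in lymph through Spns2. Their listed markers other than Pecam1 were each below 1 FPKM in both genotypes. The endothelial sum of 71.6 FPKM in wt/fl against 80.4 in fl/fl was nearly all Pecam1 (71.0 and 80.0), which B cells also express. Cdh5 was at 0.299 and 0.185, Kdr at 0.0137 and 0.0103, and Prox1 at 0.218 and 0.0494. Tek was at 0.0125 and 0.0378, Emcn at 0 and 0.0451, and Lyve1 at 0 and 0.0566. Of the 7 endothelial markers, 3 were lower in fl/fl and 4 were higher. The part of endothelial cells in the Spns2 RNA was not tested. The stromal markers summed to 0.0538 and 0.0170 FPKM. The immature B cell sum of 321 and 319 was nearly all Vpreb3 (318 and 314). The T cell markers summed to 24.0 and 22.3, and the platelet markers to 1.87 and 2.52. The natural killer markers summed to 28.9 and 19.5, with Nkg7 (9.01 and 5.33) lower past the fold. The plasma cell markers summed to 118 and 107, most of it Irf4 (60.8 and 58.9) and Xbp1 (48.8 and 45.9), neither past the fold. Igj (5.40 and 0.617) and Sdc1 (2.30 and 1.13), also plasma cell markers, were lower past it. The germinal center markers, S1pr2 among them, summed to 8.38 and 9.45, with Fas (4.43 and 7.19) higher past the fold. These calls stand beside 1.53% lower and 0.79% higher over all genes compared.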

How the data were processed

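Follicular B cells were sorted, RNA was extracted with TriZol and RNeasy columns, amplified with the Ovation RNA-Seq V2 system and made into TruSeq Nano libraries. The submitters' processing notes name Bowtie, TopHat and Cufflinks, and the versions are not given in the sources used here. The authors deposited 1 table in the layout of Cuffdiff, with a pooled FPKM for each genotype, labelled HET and KO, per group of transcripts sharing a coding sequence. These were taken as wt/fl and fl/fl. The table also holds the authors' fold changes, test statistics, p-values and q-values, which were not used. The notes name GRCm38, but the positions are those of mm9: 118 entries lie on sequences named as random and chromosome 1 reaches position 197002909, past the last gene end of GENCODE M21 at 195323493.

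FPKM was summed per gene name with Python 3.11.15 and pandas 2.3.3, and figures were drawn with matplotlib 3.10.9. The log2 ratio used a pseudocount of 1 FPKM, genes averaging 1 FPKM or more over both genotypes were compared, and 1.5-fold was the threshold. The FPKM summed over genes was 595296 in wt/fl against 596105 in fl/fl. With 1 pooled value per genotype, no test was run, and the precision of each value is unknown because depth is unknown. The calculation was tested on simulated data with 200 changed genes. The changes were put in without noise, so this checked the arithmetic and not how the calls behave in noisy data. The genes named are the 9 S1P genes with their entries, Myh9, in each list those past the fold and the 3 most abundant, the other direct S1P genes, and cell type markers, of which some are not reported here. Gna13, Gnai2, Cd69 and, in the migration list, P2ry10 were named after their values were seen. The members and lists were chosen with earlier results of these data known. Alternatives were other pseudocounts, filters, folds, scalings and the highest entry of each gene.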

Additional observations from a re-analysis of the deposited data

How the results depend on the processing

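No paired analysis was possible because the table gives 1 pooled value per genotype, and for the same reason no sample could be left out. Spns2 was the single S1P gene past 1.5-fold. With the threshold set at a ratio 25% above 1 in place of 1.5-fold, 2 were past it, S1pr1 and Spns2, and at 2-fold 0 were. Of the other pathway genes 8 were past the 25% threshold in place of 3. Genes higher in fl/fl numbered 454 at the 25% threshold, 9 at 2-fold, 26 with a mean of at least 5 FPKM and 158 with a pseudocount of 0.1, in place of 78. Genes lower in fl/fl numbered 541, 40, 67 and 256 in the same order, in place of 151. Each of the 9 S1P genes kept the sign of its log2 ratio under upper quartile and quantile scaling. Pseudocounts of 0.1 and 0.5 can change the size of a ratio but never its sign. Use of the highest entry can alter only Spns2 and Sphk1, which have several entries, and both kept their sign. The ratio of Spns2 ranged from -1.20 to -0.90 and that of S1pr1 from -0.39 to -0.38, while those of the low genes S1pr2 and Sphk1 ranged from -1.28 to -0.43 and from -1.13 to -0.19. Depth is unknown, so the error of S1pr2 and Sphk1 at these levels cannot be given.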

Other observations

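A list of lysophospholipid and acid-sensing receptors also held Enpp2, the enzyme that makes lysophosphatidic acid. Its genes were compared in 7 of 13 cases, with a median log2 ratio of 0.027. Of the 7, 0 were past the fold, beside 1.53% lower and 0.79% higher over all genes compared. The most abundant were P2ry10, with a log2 ratio of -0.49, Gpr132, an acid-sensing receptor at 29.1 FPKM in wt/fl against 26.1 in fl/fl, and Gpr174, a receptor for lysophosphatidylserine at 19.6 and 21.5. Entries of a gene on opposite sides, as in Spns2, were common. Across the table, 885 of 1232 genes (71.8%) with at least 2 entries of a mean of 1 FPKM or more had entries on both sides of 0.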
